A study of Mus musculus with 59 samples.

Results

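The genes described here are the 6 Slitrk genes, Slitrk1 to Slitrk6, and the 4 Lrrtm genes, Lrrtm1 to Lrrtm4, which make up 10 of the 18088 genes listed for the prefrontal cortex of 59 mice. They were chosen by name as gene families, and their measured level, the mean normalized count over all libraries, was used only to mark a gene as low when its mean normalized count was under 100. Only Slitrk6 was marked, with a mean of 22.2, and the next lowest was Slitrk2 with a mean of 877. All 10 reached the mean normalized count of 10 that a gene needed to be tested.

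Slitrk and Lrrtm proteins are single-pass membrane proteins with leucine-rich repeats outside the cell, found mostly on the postsynaptic side of neuronal contacts. Slitrk proteins bind receptor-type protein tyrosine phosphatases of the LAR family on the axon, and Lrrtm proteins bind neurexins, Lrrtm4 also binding heparan sulfate proteoglycans such as glypicans. Across such contacts they help to assemble excitatory synapses, Slitrk3 being known instead for inhibitory synapses.

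All mice were C57BL/6J and were analysed on postnatal day 25. HT mice were heterozygous for a knock-in allele of Shank3, which encodes a scaffold protein of excitatory postsynapses, and WT mice were wild type. From postnatal day 3 to day 24, for 3 weeks, pups of both genotypes received lithium, fluoxetine or vehicle through maternal milk. Lithium is a mood stabilizer and fluoxetine a serotonin reuptake inhibitor. The 6 arms of genotype and drug (HT lithium, HT fluoxetine, HT vehicle, WT lithium, WT fluoxetine and WT vehicle) held 5 females and 5 males each, except for 4 females in WT lithium. The data columns carry the prefix L68P, which the labels do not explain; the labels give no drug doses and no litters. Because drugs came through the dam and litters are not labelled, p-values count pups as independent and may measure differences between litters.

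Libraries held 22984556 to 35969254 reads assigned to the listed genes, as recovered from the deposited normalized counts. All 6 excitatory neuron markers were present in every arm, with summed normalized counts of 86052.5 to 187653.4. Shank3 averaged 7351 ± 1003 in HT vehicle and 7456 ± 798 in WT vehicle mice (SD, n = 10 each), and a knock-in need not lower the transcript. RNA of the olfactory bulb, which lies next to the prefrontal cortex, varied between libraries: an index that averages 8 bulb markers after dividing each by its own mean had arm medians of 0.213 to 1.192. A set of 7 libraries was set apart by a cut, an index over 2.5 or less than 5% mitochondrial reads. They were WT fluoxetine females 1, 2 and 4, HT lithium females 4 and 5, HT fluoxetine male 5 and HT vehicle male 4. The index had no gap at this cut: HT fluoxetine male 5, at 2.52, was set apart and HT vehicle male 5, at 2.49, was kept. In whole tissue, fewer cells of a type and less RNA per cell cannot be told apart.

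Promoter windows from RefSeq (GRCm38.p6), running from 250 bases before to 50 bases after a transcript start, were at hand for 8 of the 10 genes. They are shown for Slitrk6 and Lrrtm4, which were lower in lithium-treated HT mice, and for Slitrk1 and Slitrk5, which covaried most closely. Slitrk1, Slitrk5 and Slitrk6 all lie on chromosome 14. Capitals mark matches, on either strand, to TATAAA, known as the TATA box, to CCAAT, the letters of the CCAAT box, to GGGCGG, known as the GC box, to CACGTG, an E-box, or else to TGACGTCA, the cyclic AMP response element. The windows lie at chr14:110755100-110755399 on the minus strand (Slitrk6), chr6:80018627-80018926 on the plus strand (the upstream of 2 starts of Lrrtm4), chr14:108914190-108914489 on the minus strand (Slitrk1) and chr14:111675777-111676076 on the plus strand (Slitrk5).
Slitrk6: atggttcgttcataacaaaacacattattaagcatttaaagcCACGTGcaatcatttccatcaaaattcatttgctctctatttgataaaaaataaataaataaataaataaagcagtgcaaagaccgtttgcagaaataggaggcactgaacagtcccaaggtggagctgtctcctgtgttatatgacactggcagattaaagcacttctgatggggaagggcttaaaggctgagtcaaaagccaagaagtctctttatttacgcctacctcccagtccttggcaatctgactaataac
Lrrtm4: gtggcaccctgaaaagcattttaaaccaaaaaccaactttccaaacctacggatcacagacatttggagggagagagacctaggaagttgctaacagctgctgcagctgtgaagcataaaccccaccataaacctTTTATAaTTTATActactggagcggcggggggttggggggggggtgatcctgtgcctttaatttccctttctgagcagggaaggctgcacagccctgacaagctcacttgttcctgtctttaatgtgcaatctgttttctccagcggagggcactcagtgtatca
Slitrk1: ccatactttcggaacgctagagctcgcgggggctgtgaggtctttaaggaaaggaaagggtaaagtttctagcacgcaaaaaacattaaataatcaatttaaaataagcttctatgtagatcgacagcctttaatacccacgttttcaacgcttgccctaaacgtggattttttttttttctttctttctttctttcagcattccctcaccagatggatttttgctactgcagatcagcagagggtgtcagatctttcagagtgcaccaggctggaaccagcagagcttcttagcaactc
Slitrk5: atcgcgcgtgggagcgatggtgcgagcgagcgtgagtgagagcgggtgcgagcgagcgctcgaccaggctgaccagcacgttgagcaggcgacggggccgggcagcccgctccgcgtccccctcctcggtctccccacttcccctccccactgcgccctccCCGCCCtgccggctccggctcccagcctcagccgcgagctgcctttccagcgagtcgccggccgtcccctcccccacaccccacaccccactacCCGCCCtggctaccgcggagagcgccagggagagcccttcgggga

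The 4 windows differed widely in composition. The Slitrk5 window was 74.3% G or C with 35 CpG sites, against medians of 52.7% and 7 over all 32851 windows of the same length. The Slitrk6 window was 38.3% G or C with 4 CpG sites, the Slitrk1 window 42.3% with 9, and the Lrrtm4 window 48.7% with 4. Slitrk6 held an E-box that began 208 bases before the start, a motif in 7.15% of all windows. Lrrtm4 held a pair of adjacent TATA box matches on the minus strand, opposite to the gene, and 13.6% of windows hold at least 1. Slitrk5 held 2 GC boxes (35.7% of windows). Slitrk1 held none of the 5 motifs, of which CCAAT occurs in 37.4% and TGACGTCA in 1.79% of windows. No match overlapped another. The RefSeq start of Slitrk1 (chr14:108914239) lies outside its GENCODE gene (108908800 to 108914158). The end of that window was not found in a GENCODE transcript of Slitrk1. The RefSeq start of Slitrk5 (chr14:111676027) lies inside its GENCODE gene, which begins at 111675097.

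Per kilobase of exon, 9 of the 10 genes lay within 1 order of magnitude and Slitrk6 lay far below. Slitrk1, which promotes synapse formation in cultured neurons, was the highest with a mean of 495 ± 67.7 normalized counts per kb (SD, n = 59). Lrrtm1 followed at 456 ± 52.1, then Slitrk3 at 403 ± 37.9, Slitrk5 at 402 ± 43.4, Lrrtm2 at 368 ± 63.5 and Lrrtm3 at 321 ± 38.8. A lower tier held the X-linked Slitrk4 at 182 ± 30.4, Lrrtm4 at 168 ± 20.4 and the X-linked Slitrk2 at 108 ± 13.2. Slitrk6, best known from the inner ear, where its loss causes deafness in humans and hearing defects in mice, averaged 5.2 ± 2.8.

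**Figure D1:**
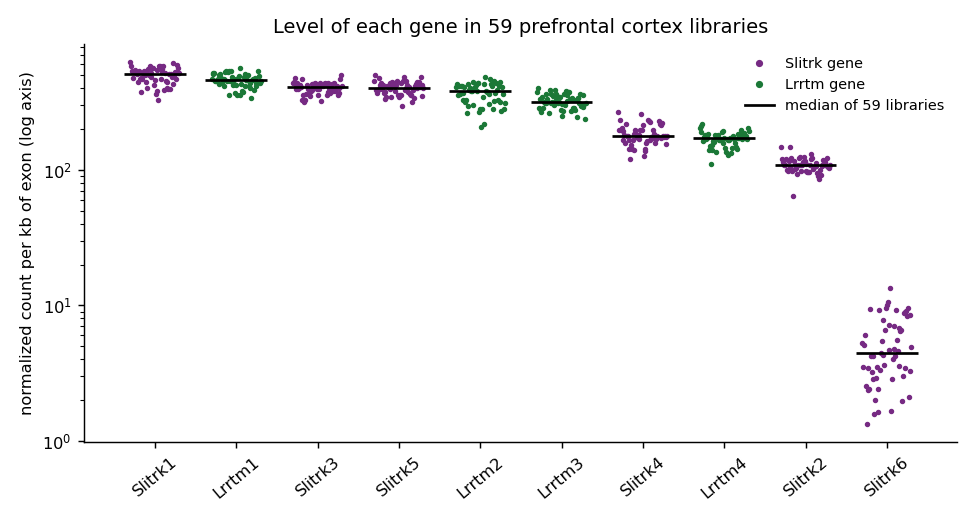
Normalized count per kb of exon (log axis) for each of the 10 genes, with a point for each of the 59 libraries and a line at the median. Slitrk1 is at the top with a median of 506.9 per kb and Slitrk6 at the bottom with 4.4, below every library of every other gene.

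The steps in this order were of unequal clarity. Lrrtm3 exceeded Slitrk4 in 59 of 59 libraries, Lrrtm4 exceeded Slitrk2 in 58 and Slitrk2 exceeded Slitrk6 in 59. Slitrk3 exceeded Slitrk5 in only 31 of 59, so that this pair had no order. The other neighbours kept their order in 41 to 52 of the 59 libraries, and their mean log2 ratios (0.11 to 0.18) were about as large as or smaller than the SD of those ratios (0.17 to 0.22).

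Levels moved little between arms for most of the genes. The highest arm mean was 1.11 to 1.28 times the lowest for the 9 abundant genes and 2.34 times for Slitrk6. The lowest arm mean was found in WT lithium (Slitrk1, Slitrk2, Slitrk5, Lrrtm1 and Lrrtm3), in HT lithium (Slitrk3, Slitrk4, Slitrk6 and Lrrtm4) or in WT fluoxetine (Lrrtm2). Within groups, the SD on the log2 scale was 0.13 for Slitrk3 to 0.25 for Lrrtm2, near the median of 0.18 over all tested genes, but 0.70 for Slitrk6. Slitrk6 had 6 to 56 reads per library, with a median of 18, so counting error alone is large for it.

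The comparison of lithium with vehicle in HT mice asked what the drug did in the mutant cortex, and 3 of the 10 genes passed an adjusted p of 0.05, all lower with lithium (females and males averaged). They were Slitrk4, Slitrk6 and Lrrtm4. Across all 16599 tested genes 20.3% passed, 9.43% lower and 10.9% higher, and 32.2% had an unadjusted p under 0.05, as did the same 3 of the 10. The median log2 fold change of the 10 genes was -0.08, against 0 over all tested genes, and 8 of the 10 values were below 0. All fold changes are on the log2 scale of the normalized count plus 1, with the standard error of limma, and average females and males.

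Slitrk4 is a Slitrk of the X chromosome (chrX:64264885-64276996). In HT lithium mice its normalized counts were 1546, 1538, 1448, 1249 and 1056 in females and 1340, 1246, 1454, 1612 and 1223 in males. In HT vehicle mice they were 1718, 1596, 1532, 1509 and 1570 in females and 1484, 1716, 2252, 1708 and 1880 in males. All 10 lithium values lay below the vehicle median of 1652, and 7 lay below the lowest vehicle value. The log2 fold change was -0.31 ± 0.08 (adjusted p = 0.00298, limma).

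Slitrk6 (chr14:110748580-110755149) showed the largest fold change of the 10 genes on the fewest reads. Its normalized counts in HT lithium mice were 17.8, 13.8, 17.9, 12.1 and 6.7 in females and 8.5, 12.3, 14.9, 10.2 and 6.9 in males. In HT vehicle mice they were 39.1, 14.1, 18.9, 23.3 and 32.8 in females and 18.2, 15.3, 28.0, 40.7 and 42.5 in males. The ranges overlapped between 14.1 and 17.9, and 7 of 10 lithium values were below the lowest vehicle value. The log2 fold change was -1.07 ± 0.30 (adjusted p = 0.00808, limma), and -1.18 with edgeR on the recovered reads (adjusted p = 0.00439).

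Lrrtm4 (chr6:80018877-80810143), a binding partner of neurexins and glypicans, was lower by less. HT lithium females had 1126, 863, 919, 682 and 941 normalized counts and HT lithium males 865, 1004, 981, 1105 and 830. HT vehicle females had 1064, 1045, 1101, 1010 and 1012 and HT vehicle males 1042, 1162, 1182, 963 and 1046. The groups overlapped: 8 of 10 lithium values were below the vehicle median of 1045.3 and 6 below the lowest vehicle value. The log2 fold change was -0.20 ± 0.065 (adjusted p = 0.0208, limma), and the call was lost without either HT lithium female 4 or HT lithium male 5. It was also lost with only the groups compared (adjusted p = 0.0543), in females alone (-0.23, adjusted p = 0.167) and in males alone (-0.18, adjusted p = 0.134).

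In females alone none of the 10 genes passed, Slitrk4 having -0.23 (adjusted p = 0.18) and Slitrk6 -0.84 (adjusted p = 0.221, limma). Fewer of all tested genes passed there too, as counted below, and a fit in females or males alone uses fewer mice. In males alone Slitrk4 (-0.39 ± 0.11, adjusted p = 0.0201) and Slitrk6 (-1.31 ± 0.42, adjusted p = 0.034) were lower and Lrrtm1, a binding partner of neurexins, was higher (0.25 ± 0.08, adjusted p = 0.0452, limma). The bulb index differed between these males, with medians of 0.13 in HT lithium and 1.02 in HT vehicle. In females the medians were 1.341 and 0.435. Within groups over all libraries the index had r = 0.79 with Slitrk6 and r = -0.63 with Lrrtm1. Its part in the calls in males alone was not tested.

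Library properties moved along with these values. The slope of a library's expression on the GC content of genes had a median of 0.08 log2 units per 10 points of GC in HT lithium and -0.06 in HT vehicle, and Slitrk4 (34.7% GC) and Lrrtm4 (38.4% GC) are AT-rich transcripts. With the GC trend removed within each library, Slitrk4 had a log2 fold change of -0.10 (adjusted p = 0.242) and Lrrtm4 one of -0.04 (adjusted p = 0.80), whereas Slitrk6 (39.6% GC) had -0.93 (adjusted p = 0.0311, limma). Across all tested genes, which are not independent replicates, the fold change of this comparison had a Spearman correlation of 0.47 with GC content.

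The bulb index had a median of 0.21 (range 0.08 to 2.90) in HT lithium and 0.70 (0.10 to 3.03) in HT vehicle. Of its 8 markers none passed in this comparison, and their median log2 fold change was -1.06. With the index as a covariate, a setting chosen after seeing the data, Slitrk6 stood at -0.75 (adjusted p = 0.00294), Slitrk4 at -0.28 (0.00433) and Lrrtm4 at -0.23 (0.00485). Without the 7 libraries set apart, Slitrk6 stood at -0.84 (adjusted p = 0.0346), Slitrk4 at -0.24 (0.0323) and Lrrtm4 at -0.17 (0.0564).

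The other 7 genes did not pass in this comparison. Slitrk2, an X-linked Slitrk, had -0.13 ± 0.075 (adjusted p = 0.247), Slitrk3 -0.10 ± 0.06 (0.252) and Lrrtm1 0.11 ± 0.07 (0.288). Slitrk2 passed only without HT lithium female 2 (-0.19, adjusted p = 0.0407) and Slitrk3 only without HT lithium female 1 (-0.14, adjusted p = 0.0489), among single libraries left out. Slitrk1, Slitrk5, Lrrtm2 and Lrrtm3 had log2 fold changes between -0.06 and 0.01.

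**Figure D2:**
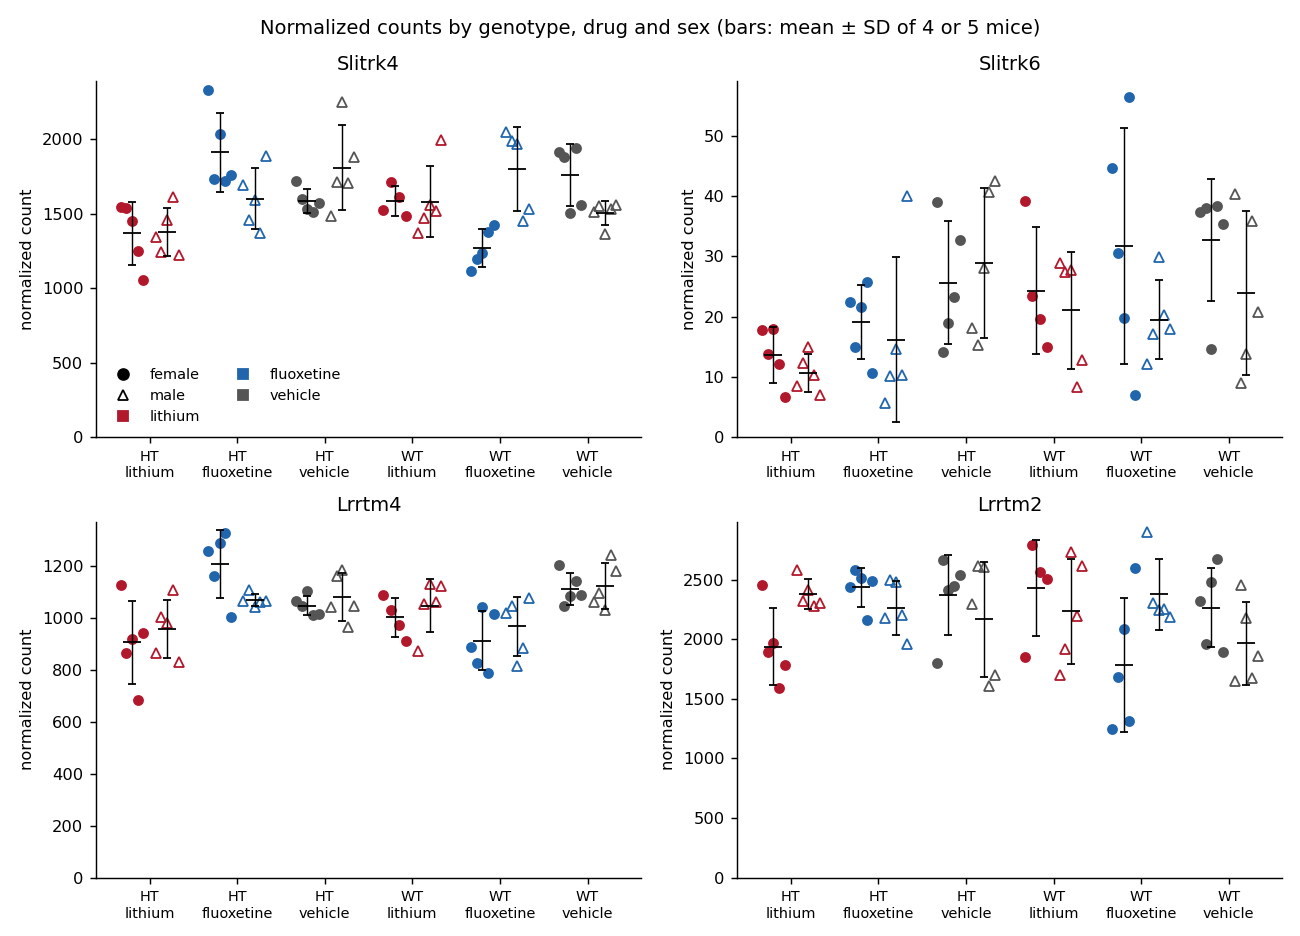
Normalized counts of Slitrk4, Slitrk6, Lrrtm4 and Lrrtm2 in each mouse by arm, with females as filled circles and males as open triangles, red for lithium, blue for fluoxetine and grey for vehicle; bars are the mean ± SD of 4 or 5 mice. HT lithium mice sit low for Slitrk4 (at most 1612) and Slitrk6 (at most 17.9), and WT fluoxetine females sit below WT vehicle females for Slitrk4.

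In WT mice none of the 10 genes passed for lithium against vehicle (limma, and also edgeR and DESeq2 on recovered reads), where 12.8% of all tested genes did. At an unadjusted p under 0.05 there were 26.7% of all genes and 2 of the 10, Slitrk1 and Slitrk5. Both lie on chromosome 14, as does Slitrk6, and Slitrk5 is known for compulsive-like grooming in knockout mice. Slitrk1 had a lowest, median and highest value of 2062.0, 2372.2 and 2766.4 in WT lithium (n = 9) and 2290.3, 2764.7 and 3260.5 in WT vehicle (n = 10). Slitrk5 had 1671.6, 1909.8 and 2182.8 in WT lithium and 1828.4, 2225.9 and 2520.9 in WT vehicle. The lithium mice were on the low side for both genes, with overlapping ranges, and 8 of 9 lithium mice lay below the vehicle median for Slitrk1.

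The log2 fold changes were -0.23 ± 0.085 for Slitrk1 (adjusted p = 0.0632) and -0.18 ± 0.07 for Slitrk5 (adjusted p = 0.0615, limma). Both passed without the 7 libraries (-0.23, adjusted p = 0.0138, and -0.18, adjusted p = 0.0265) and with the bulb index as a covariate (-0.26, adjusted p = 0.000537, and -0.20, adjusted p = 0.00508). At least 1 of them also passed when any of 8 single libraries was left out: WT fluoxetine female 4 or 5, WT lithium female 2, male 3 or male 5, or WT vehicle female 2, male 1 or male 4 (-0.27 to -0.23 for Slitrk1 and -0.21 to -0.18 for Slitrk5 where they passed). The bulb index had medians of 0.730 in WT lithium and 1.192 in WT vehicle mice.

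Slitrk4 and Slitrk6 did not pass in WT lithium mice, at -0.04 ± 0.08 and -0.28 ± 0.31. The difference between genotypes was tested as an interaction. For Slitrk4 it was -0.27 ± 0.11 (adjusted p = 0.316), for Slitrk6 -0.80 ± 0.43 (adjusted p = 0.455) and for Lrrtm4 -0.07 ± 0.09 (adjusted p = 0.793, limma). None of the 10 genes passed this test, which 0.00602% of all genes did, and 1 of the 10 had an unadjusted p under 0.05, against 12.2% of all genes. The 95% interval of the Slitrk4 difference, before adjustment, ran from -0.49 to -0.04, but the difference was -0.06 with the GC trend removed (adjusted p = 0.94), -0.08 in females alone and -0.45 in males alone (adjusted p = 0.082). In males alone Lrrtm1 passed this interaction (0.45 ± 0.12, adjusted p = 0.0394, limma), as did 629 of all genes. The bulb index had medians of 0.13 in HT lithium, 1.02 in HT vehicle, 0.73 in WT lithium and 1.185 in WT vehicle males. Its part in this call was not tested.

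**Figure D3:**
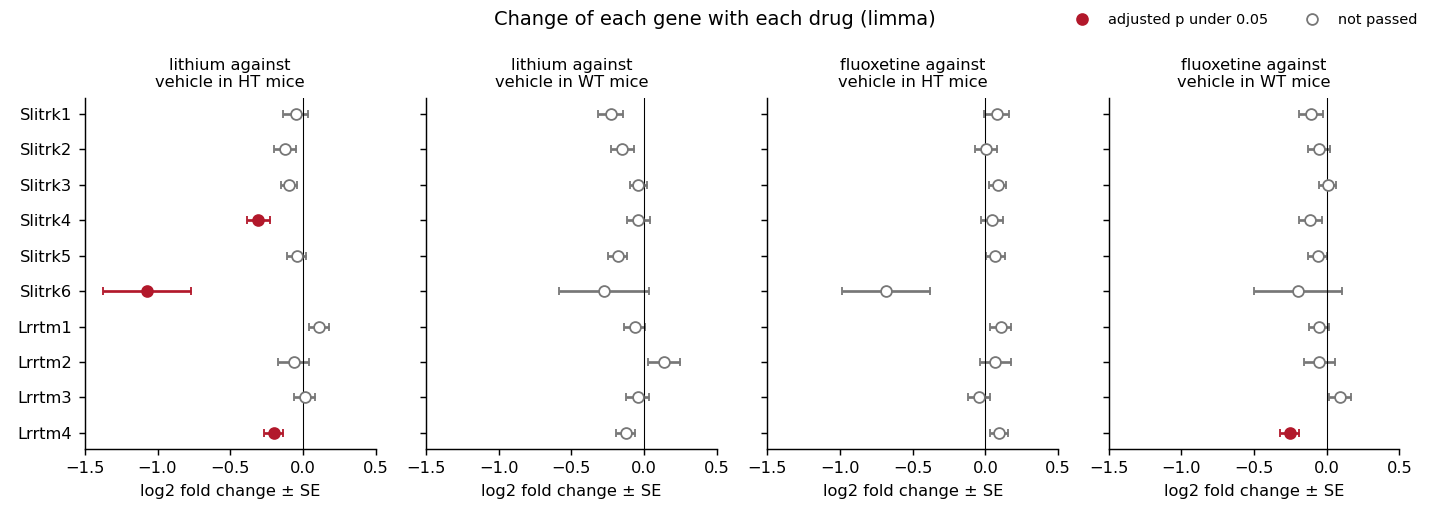
Log2 fold change ± SE (limma) of each gene with lithium and with fluoxetine, against vehicle, in HT and in WT mice; filled red points passed an adjusted p of 0.05. The 4 filled points are Slitrk4, Slitrk6 and Lrrtm4 with lithium in HT mice and Lrrtm4 with fluoxetine in WT mice, and all are below 0.

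Fluoxetine against vehicle in WT mice gave 1 gene of the 10, Lrrtm4, which was lower with the drug, where 5.66% of all tested genes passed, 2.11% lower and 3.54% higher, and 20.6% had an unadjusted p under 0.05. WT fluoxetine females had 887, 827, 1041, 788 and 1015 normalized counts and WT fluoxetine males 1017, 1046, 813, 885 and 1074. WT vehicle females had 1203, 1043, 1083, 1141 and 1087 and WT vehicle males 1059, 1097, 1031, 1243 and 1178. All 10 fluoxetine values were below the vehicle median of 1091.7 and 7 were below the lowest vehicle value, with an overlap between 1031 and 1074. The log2 fold change was -0.26 ± 0.065 (adjusted p = 0.0121, limma).

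Lrrtm4 kept this call when any 1 library was left out, but not without the 7 libraries (-0.16, adjusted p = 0.096), 3 of which are WT fluoxetine females, nor with the GC trend removed (-0.21, adjusted p = 0.0714). It passed in neither sex alone, at -0.29 in females (adjusted p = 0.0605) and -0.22 in males (adjusted p = 0.143). With the bulb index as a covariate it stood at -0.27 (adjusted p = 0.00129). The index had a median of 0.50 and a highest value of 4.32 in WT fluoxetine, against 1.192 and 2.23 in WT vehicle mice. Of 7 oligodendrocyte markers 4 were lower in this comparison, with a median log2 fold change of -0.65, and their part in the result was not tested.

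In HT mice no gene of the 10 passed for fluoxetine with limma or edgeR, nor with DESeq2, which gave Slitrk6 no adjusted p. Of all genes 0.277% passed with limma. At an unadjusted p under 0.05 there were 11.6% of all genes and 1 of the 10, Slitrk6. Slitrk6 had a lowest, median and highest value of 5.7, 14.8 and 39.97 in HT fluoxetine and of 14.1, 25.6 and 42.5 in HT vehicle mice. Its log2 fold change was -0.68 ± 0.30 (adjusted p = 0.348). Lrrtm4 lay on the other side of 0 here, at 0.09 ± 0.065.

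Lrrtm4 was also the gene of the 10 with the smallest p between HT and WT mice under fluoxetine. All 10 HT fluoxetine values (1003.0 to 1327.4) lay above the WT fluoxetine median of 950.8, and 5 lay above the highest WT value. The log2 fold change was 0.28 ± 0.065, with an unadjusted p of 7.39e-05 and an adjusted p of 0.143 (limma), so it did not pass. DESeq2 gave 0.27 (adjusted p = 0.0298) and the fit with the bulb index 0.27 (adjusted p = 0.0374), without WT fluoxetine female 5 it was 0.30 (adjusted p = 0.0255), and without the 7 libraries it was 0.19 (adjusted p = 0.519). In females alone Slitrk4 passed in this comparison (0.59 ± 0.10, adjusted p = 0.0443, limma) and Lrrtm4 did not. The interaction of genotype with fluoxetine was 0.35 ± 0.09 for Lrrtm4 (unadjusted p = 0.000356, adjusted p = 0.765). Of all genes, 0% passed either test with limma, and 11.3% and 5.08% had an unadjusted p under 0.05. These comparisons share the WT fluoxetine libraries.

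Under vehicle, HT against WT mice gave none of the 10 with limma, edgeR or DESeq2, none at an unadjusted p under 0.05, and 0% of all tested genes with limma (6.47% at an unadjusted p under 0.05). The log2 fold changes of the 10 lay between -0.07 for Lrrtm4 and 0.10 for Lrrtm2. Under lithium none of the 10 passed with limma (0% of all genes, 11.1% at an unadjusted p under 0.05), with 4 at an unadjusted p under 0.05: Slitrk4 at -0.21 ± 0.08, Slitrk6 at -0.80 ± 0.31, Lrrtm4 at -0.145 ± 0.07 and Lrrtm1 at 0.15 ± 0.07. The library measures differed between these arms. The bulb index had medians of 0.213 in HT lithium and 0.73 in WT lithium, and the GC slope 0.08 and 0.01.

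Females against males, averaged over the 6 arms, gave none of the 10 with any of the 3 tools, where 0.217% of all genes passed. At an unadjusted p under 0.05 there were 10.3% of all genes and 1 of the 10 (Slitrk3, -0.07 ± 0.03, adjusted p = 0.461). The X-linked Slitrk2 and Slitrk4 had female minus male differences of 0.01 ± 0.04 and -0.03 ± 0.045, with 95% intervals of -0.08 to 0.10 and -0.12 to 0.06.

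In WT mice 2 of the 10 genes, Slitrk4 and Lrrtm2, passed the interaction of sex with fluoxetine, both in the direction of females lower, against 8.66% of all genes in either direction (26% at an unadjusted p under 0.05, as were 3 of the 10). Slitrk4 in females had 1112, 1198, 1234, 1377 and 1426 normalized counts with fluoxetine, and 1915, 1881, 1502, 1942 and 1561 with vehicle, with no overlap. The share of all genes without overlap between these groups was not counted, and WT fluoxetine females 1, 2 and 4 are among the 7 libraries set apart. In males it had 2050, 1987, 1969, 1452 and 1532 with fluoxetine, and 1514, 1551, 1361, 1531 and 1560 with vehicle, with the fluoxetine values mostly above. The interaction was -0.71 ± 0.15 (adjusted p = 0.00581, limma). Taken alone, females gave -0.47 ± 0.10 (adjusted p = 0.00631) and males 0.24 ± 0.11 (adjusted p = 0.224).

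Lrrtm2, which binds neurexins and helps to hold AMPA receptors at synapses, had 1244, 1682, 2084, 1314 and 2593 normalized counts in WT fluoxetine females and 2323, 1963, 2479, 2670 and 1889 in WT vehicle females. In males it had 2901, 2303, 2243, 2251 and 2185 with fluoxetine and 1645, 2457, 2181, 1675 and 1862 with vehicle. The groups overlapped in both sexes, and in females the lowest values, 1244, 1314 and 1682, were those of fluoxetine females 1, 4 and 2. The interaction was -0.67 ± 0.215 (adjusted p = 0.0405, limma). The call was lost with edgeR (-0.62, adjusted p = 0.0557) and with only the groups compared (adjusted p = 0.11), and held with DESeq2 (-0.62, adjusted p = 0.0346). It was also lost, with an adjusted p of up to 0.103, when any of 11 single libraries was left out: WT fluoxetine female 1, 2 or 4 or male 1 or 3, or WT vehicle female 1, 3 or 4 or male 1, 4 or 5.

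Neither interaction held in every setting. Without the 7 libraries Slitrk4 stood at -0.64 (adjusted p = 0.0988) and Lrrtm2 at -0.23 (adjusted p = 0.602), and with the GC trend removed they stood at -0.32 (adjusted p = 0.152) and -0.38 (adjusted p = 0.392). The bulb index had a median of 2.64 in WT fluoxetine females and 1.199 in WT vehicle females, against 0.217 in WT fluoxetine males and 1.185 in WT vehicle males. In HT mice Slitrk4 had a sex by fluoxetine interaction of 0.43 ± 0.15 (unadjusted p = 0.00678, adjusted p = 0.773), opposite in sign to WT mice. No gene of the 10 passed the sex interactions of HT fluoxetine, HT lithium or WT lithium, which 0%, 0.012% and 0% of all genes passed. At an unadjusted p under 0.05 these gave 1, 1 and 0 of the 10, against 5.31%, 17.1% and 8.84% of all genes.

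The presynaptic partners of these proteins were followed as a list of 12 genes (LAR-type phosphatases, neurexins and glypicans). With lithium in HT mice 6 of the 12 were higher and none lower, with a median log2 fold change of 0.16 against 0 over all genes, of which 10.9% were higher and 9.43% lower. Those with the smallest p were the LAR phosphatase Ptprf at 0.36 ± 0.065 (adjusted p = 6.86e-05), the Slitrk receptor Ptprs at 0.29 ± 0.06 (0.00102), the neurexin Nrxn2 at 0.35 ± 0.08 (0.00117) and the glypican Gpc6 at 0.33 ± 0.085 (0.00372). Ptprd, a receptor for Slitrk3, had -0.06 ± 0.06. The count was 6 without the 7 libraries and 4 with the GC trend removed.

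In the other drug comparisons 1 of the 12 partners was higher each time: Gpc4, at 0.28 ± 0.095 with lithium in WT mice, Ptprf, at 0.28 ± 0.065 with fluoxetine in HT mice, and Gpc1, at 0.26 ± 0.06 with fluoxetine in WT mice. Over all genes 12.8%, 0.277% and 5.66% passed in these comparisons, in either direction. Without the 7 libraries 3 partners were higher in each WT comparison, and with the length trend removed none passed with fluoxetine in HT mice. In the sex by fluoxetine interaction in WT mice 2 partners passed, against 8.66% of all genes: Nrxn2 at 0.60 ± 0.16 (adjusted p = 0.0152) and Ptprd at -0.36 ± 0.12 (adjusted p = 0.0464, limma). Without the 7 libraries, and with the GC trend removed, 0 of the 12 passed it. No partner passed between genotypes or between the sexes.

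A second list held 36 other adhesion genes of synapses, most with leucine-rich repeats. With lithium in HT mice 8 were higher and 1 lower (median 0.14), against 10.9% and 9.43% of all genes, led by Lrfn3 at 0.36 ± 0.075 (adjusted p = 0.000434), Flrt1 at 0.36 ± 0.08 (0.000714) and the latrophilin Adgrl1 at 0.29 ± 0.07 (0.00138). Lrrn3 was the lower gene, at -0.29 ± 0.07 (0.00155). With lithium in WT mice 6 were higher and none lower, where 12.8% of all genes passed in either direction. With fluoxetine in WT mice 5 were higher and 1 lower, against 3.54% and 2.11% of all genes. With the length trend removed these counts were 3 higher and none lower for lithium, and 1 higher and 1 lower for fluoxetine. With the bulb index they were 8 higher and 3 lower for lithium, and 7 higher and 5 lower for fluoxetine. That fluoxetine comparison was led by the teneurin Tenm4 at 0.25 ± 0.05 (adjusted p = 0.00256), the neurotrophin receptor Ntrk3 at 0.26 ± 0.06 (0.00861), Elfn2 at 0.24 ± 0.06 (0.0181) and Elfn1 at 0.25 ± 0.07 (0.0232). None of the 36 passed with fluoxetine in HT mice with limma, against 1 with edgeR and 2 with DESeq2. With the GC trend removed, lithium in HT mice gave 4 higher and 1 lower.

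In WT mice 5 of these 36 genes passed the sex by fluoxetine interaction, against 8.66% of all genes, and 0 passed it without the 7 libraries or with the GC trend removed. Lrfn4 (0.56 ± 0.11, adjusted p = 0.00489), Lrrc4b (0.75 ± 0.18, adjusted p = 0.00896) and Elfn1 (0.43 ± 0.14, adjusted p = 0.0431) were above 0. Flrt3 (-0.60 ± 0.18, adjusted p = 0.0333) and Tenm1 (-0.65 ± 0.21, adjusted p = 0.0464) were below 0.

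Lrrtm1, Lrrtm2 and Lrrtm3 lie inside the alpha-catenin genes Ctnna2, Ctnna1 and Ctnna3 on the opposite strand. The library kit keeps strand, but whether the quantification used it is not given in the sources used here. The 3 alpha-catenin genes passed in none of the comparisons. Their mean normalized counts were 4612.1 for Ctnna2, 1421.7 for Ctnna1 and 24.4 for Ctnna3, and that of Lrrtm3 was 1363. Whether reads from the alpha-catenin genes were counted under the Lrrtm genes was not tested.

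Across the 59 libraries, after each group's mean was removed, most of the genes rose and fell together and Slitrk6 ran against 5 of them. Of 45 pairs, 27 passed an adjusted p of 0.05 (permutation test of Pearson's r). Of those, 22 were positive, and each of the 5 negative pairs held Slitrk6. Slitrk6 did not pass with Slitrk2 (r = 0.03), Slitrk3 (r = -0.12), Slitrk4 (r = 0.19) or Lrrtm4 (r = -0.06). The share of pairs that pass among all tested genes was not counted, so whether this share is high for these libraries was not tested. Slitrk1 and Slitrk5 had r = 0.83 (rho = 0.84) and Slitrk1 and Lrrtm2 r = 0.82 (rho = 0.77), with an adjusted p of 3.5e-05 each. Slitrk6 and Lrrtm2 had r = -0.61 (rho = -0.57, adjusted p = 3.5e-05). The X-linked Slitrk2 and Slitrk4 had r = 0.61 (rho = 0.60, adjusted p = 3.5e-05), while neither passed with Slitrk1 by r. By rank Slitrk2 and Slitrk1 did pass (r = 0.22, rho = 0.35, adjusted p = 0.014 for rho). For each pair the 2 libraries farthest from the median of its first gene, in the order Slitrk1 to Slitrk6 and then Lrrtm1 to Lrrtm4, were also left out. With this 26 pairs passed, and extremes of the second gene were not removed.

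**Figure D4:**
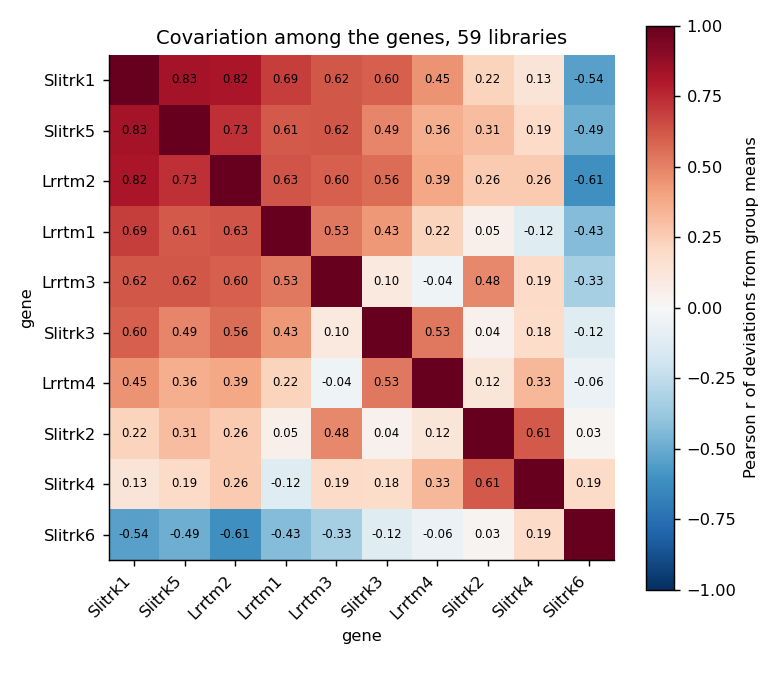
Pearson r between the 10 genes, on deviations of the log2 normalized count from group means over 59 libraries (red positive, blue negative). Slitrk1, Slitrk5, Lrrtm2, Lrrtm1 and Lrrtm3 form a block with r of 0.53 to 0.83, Slitrk2 and Slitrk4 pair at 0.61, and the Slitrk6 row reaches -0.61.

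These deviations followed 2 library measures, each related to all 10 genes (10 relations per measure, adjusted within it). The bulb index on the log2 scale had r = 0.79 with Slitrk6 (rho = 0.80) and -0.77 with Slitrk1 (rho = -0.74), -0.72 with Lrrtm2 (rho = -0.71), -0.63 with Lrrtm1 (rho = -0.60) and -0.62 with Slitrk5 (rho = -0.62), each with an adjusted p of 2e-05 from a permutation p of 1e-05, the smallest the permutations can give. With the 2 libraries farthest from the median of the index left out, Slitrk6 had 0.78 and Slitrk1 -0.73. Slitrk4 (r = 0.24) and Slitrk2 (r = 0.08) did not pass. The GC slope had r = -0.77 with Slitrk2 (rho = -0.75) and -0.71 with Slitrk4 (rho = -0.70), each with an adjusted p of 5e-05, and 0.34 with Lrrtm1 (rho = 0.41, adjusted p = 0.029). Without the 2 libraries farthest from the median of the slope, r was -0.71 for Slitrk2 and -0.67 for Slitrk4.

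**Figure D5:**
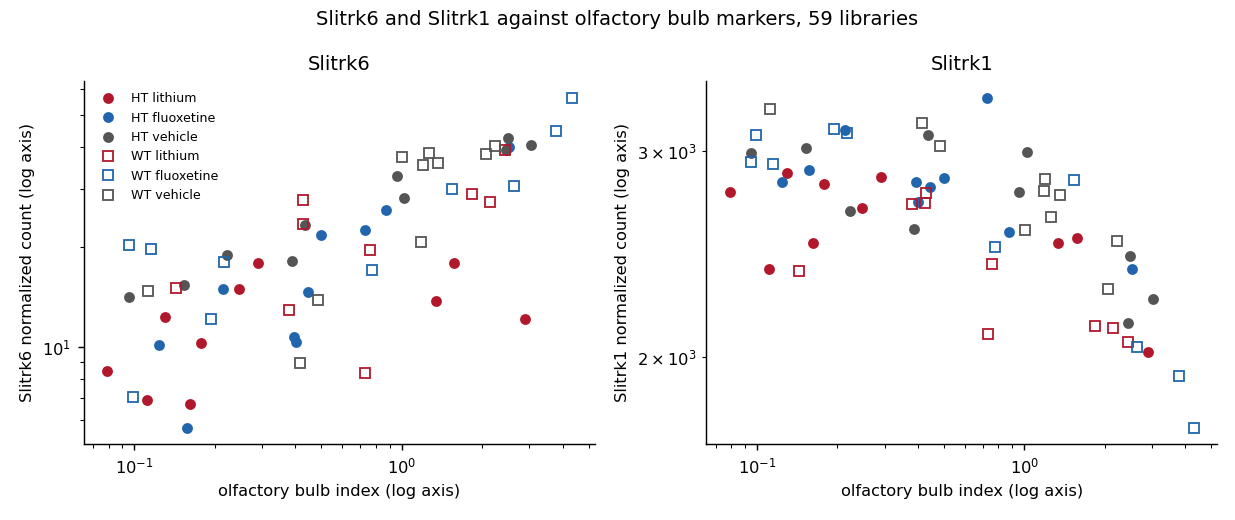
Normalized count (log axis) of Slitrk6, left, and Slitrk1, right, against the olfactory bulb index (log axis) in 59 libraries, with HT mice as filled circles and WT mice as open squares, red for lithium, blue for fluoxetine and grey for vehicle. Slitrk6 climbs with the index (r = 0.79 within groups) and Slitrk1 declines with it (r = -0.77).

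The tested genes most like each member, by Pearson's r of the same deviations over 59 libraries, differed between the members. Slitrk6 was nearest to Crabp1 (0.84), Ntng1 (0.83) and Mdga1 (0.82), which had r of 0.92, 0.94 and 0.95 with the bulb index. Crabp1 encodes a retinoic acid binding protein, Ntng1 the adhesion protein netrin-G1 and Mdga1 a protein that masks neuroligins. Slitrk4 was nearest to Ube3a (0.76), a ubiquitin ligase, and to Fzd3 and Fam126b (0.75 each), with r of 0.28, -0.07 and -0.08 with the bulb index. Slitrk2 was nearest to Tmem47 (0.86), Mob4 (0.85) and Tm9sf3 (0.83), with r of 0.25, 0.08 and 0.06 with the bulb index.

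Slitrk1 was nearest to Arhgap32 (0.95), Wdr47 (0.92) and Lrrc4c (0.92), itself an adhesion gene of the second list. These 3 had r of -0.81, -0.8 and -0.77 with the bulb index. Lrrtm2 was nearest to Reps2 (0.94), Slitrk5 to the transcription factor gene Foxp1 (0.87), Lrrtm1 to Cdk5r2 (0.86), an activator of Cdk5, and Lrrtm3 to the kinase gene Nlk (0.82). With the bulb index Reps2 had r of -0.78, Foxp1 -0.78, Cdk5r2 -0.75 and Nlk -0.32. Whether members and nearest genes vary together apart from the index was not tested. Slitrk3 and Lrrtm4 had the loosest nearest neighbours: Ccn3 and Npy1r (0.71 each) for Slitrk3, and Efnb2 (0.70), the serotonin receptor gene Htr2c (0.69) and Ccn3 (0.68) for Lrrtm4. With the bulb index Ccn3 had r of -0.72, Npy1r -0.56, Efnb2 -0.16 and Htr2c -0.28.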

How the data were processed

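Poly(A) RNA of prefrontal cortex was sequenced with a stranded kit, per the labels' protocols. Per the submitters' processing notes, which give no order of steps, the tools were Salmon 0.11.2, DESeq2 1.19.11 and R 3.6.0, and the build was GRCm38. The signal values deposited by the authors behave as read counts scaled by 1 factor per library (0.783 to 1.245). Whole reads were recovered from the steps for 100.0% of values (within 0.001). Which genes the authors left out is not given in the sources used here. Gene counts from Salmon would be estimates, rounded here. No column went unused.

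Symbols and GRCm38 coordinates came from GENCODE (18077 of 18088 IDs matched), and exon bases per gene are the union over its transcripts. Groups follow the titles. limma 3.58.1 in R 4.3.3 was fitted to log2 of the normalized count plus 1 for the 16599 genes with a mean of at least 10, with a mean for each of 12 groups, trend and robust options, two-sided tests and Benjamini-Hochberg adjustment within each comparison at 0.05. The steps were tested on simulated counts. The pseudocount makes fold changes of low genes such as Slitrk6 smaller. Correlations used deviations from group means and 100000 permutations.

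Alternatives were pseudocounts of 0.5 and 5, no filter, quantile normalization, only the groups compared, the replicate number as a block, each sex alone, each library left out, the 7 libraries left out, GC or length trends removed (loess, span 0.5), and edgeR 4.0.16 and DESeq2 1.42.0 on recovered reads. The bulb index as a covariate was added after seeing the data. The genes, lists and tests were chosen with earlier results of these data known. All 10 genes are named. Of the lists, up to 4 genes by smallest p are named where a Slitrk or Lrrtm gene passed, and of nearest genes the first 3. Ptprd, and genes named where none of the 10 passed, were named after their values were seen. No protein sequence was used here.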

Additional observations from a re-analysis of the deposited data

Results flagged for a closer look

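In 7 of 120 sets of values (10 genes in 12 groups), 1 mouse lay apart from the others of its group by Dixon's criterion, which chance gives in about 1 in 20 sets. Slitrk2 had 873.7 normalized counts in WT fluoxetine female 5, with the others at 771.72 to 788.04, and 986.87 in WT vehicle male 2, with the others at 838.08 to 878.2. Slitrk3 had 2243.87 in HT lithium female 1, with the others at 1529.33 to 1736.02. Slitrk4 had 1361.1 in WT vehicle male 3, below the others at 1513.62 to 1559.84. Slitrk6 had 39.97 in HT fluoxetine male 5, with the others at 5.7 to 14.57, and this library is among those set apart by bulb markers, with an index of 2.52. Slitrk6 had 14.67 in WT vehicle female 3, below the others at 35.38 to 38.33. Lrrtm2 had 2900.95 in WT fluoxetine male 1, with the others at 2184.68 to 2303.24.

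A difference between the sexes in the change with fluoxetine in WT mice drew attention for Slitrk4 (-0.71 on the log2 scale, female minus male change, adjusted p = 0.00581) and Lrrtm2 (-0.67, adjusted p = 0.0405, limma). Leaving out WT fluoxetine male 1, the high Lrrtm2 value, was among the 11 of 59 omissions that ended the Lrrtm2 call.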

How the results depend on the processing

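Counts of the 10 genes that passed moved as follows. The count over all tested genes is given below for only some of these settings. Where it is not given, whether the 10 genes moved more than all genes was not tested. For lithium in HT mice 3 passed, but 0 in females alone, 1 with the GC trend removed and 2 with only the groups compared; in males alone the 3 were Slitrk4, Slitrk6 and, higher, Lrrtm1. For lithium in WT mice 0 passed, but 2 with quantile normalization, 3 with only the groups compared, 2 without the 7 libraries, 2 with the GC trend removed, 3 with the length trend removed and 2 with the bulb index as a covariate. For fluoxetine in WT mice 1 passed, but 0 in males alone, 0 without the 7 libraries, 0 with the GC trend removed and 2 with the bulb index, and in females alone the 1 gene was Slitrk4, not Lrrtm4. For HT against WT mice under fluoxetine 0 passed, but 1 in females alone, 1 with the bulb index and 1 with DESeq2. The genotype by lithium interaction gave 0, but 1 in males alone (Lrrtm1). The sex by drug interactions gave 2, but 0 without the 7 libraries, 0 with the GC trend removed, 1 with edgeR and 1 with only the groups compared. Fits in 1 sex or without 7 libraries use fewer samples; for the other settings the cause was not tested. Leaving out each of 59 libraries gave 2 to 4 genes for lithium in HT mice, 0 to 2 for lithium in WT mice, 0 to 1 for HT against WT mice under fluoxetine, and 1 to 2 for the sex by drug interactions. The replicate numbers do not pair the mice: same-numbered libraries had a mean correlation of -0.001, and 8 of 59 correlated best with their own number. With the replicate block 3 genes passed for lithium in HT mice and 0 in WT mice. Slitrk6 had a median of 18 reads, which limits every value given for it.

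Counts over all tested genes moved by more than 1.5 times in several settings. Lithium in HT mice gave 3374 genes, 1166 in females alone and 1955 with the GC trend removed. Lithium in WT mice gave 2120, 555 in females alone, 493 in males alone, 1264 with the length trend removed and 3482 with the bulb index. Fluoxetine in WT mice gave 939, 402 in males alone, 424 with only the groups compared, 549 with the length trend removed, 1805 without the 7 libraries and 3076 with the bulb index. Fluoxetine in HT mice gave 46, and 0 to 198 over all settings. The sex by drug interactions gave 1440 in all, 436 with only the groups compared, 27 with the GC trend removed and 2 without the 7 libraries. HT against WT mice gave 0 under each treatment, but 6 under vehicle, 19 under fluoxetine and 37 under lithium with DESeq2, 136 under vehicle in males alone, 26 under lithium without the 7 libraries, and 58 under fluoxetine and 11 under lithium with the bulb index. The genotype by lithium interaction gave 1, but 629 in males alone and 34 with DESeq2. Females against males gave 36, but 71 with the bulb index and 70 with DESeq2. The replicate block changed none of the counts of the 10 genes.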

Other observations

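Among the 22 libraries with a bulb index over 1, a limit chosen after seeing the values, Slitrk6 lay at 12.1 to 17.9 normalized counts in the 3 from HT lithium mice, against 20.7 to 56.4 in the 19 from all other arms. These are values of single libraries, all 3 from females, and were not tested. How many of all genes separate these libraries in the same way was not counted, and Slitrk6 had few reads in every library.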
